A study of Mus with 12 samples.

Results

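Cd74, H2-Aa, H2-Ab1 and H2-Eb1 encode the invariant chain and the classical MHC class II chains of the mouse. They were picked by name from a panel of immune and kidney genes, and make up 4 of its 741 endogenous genes. Their counts were followed over all 12 libraries of the study by genotype, by kidney side and by mouse, first scaled to the whole panel and then set against Adgre1 and Csf1r of the same library. Adgre1 encodes F4/80, the macrophage surface protein by which the cells had been selected, and Csf1r encodes the receptor for macrophage colony-stimulating factor.

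The libraries came from cells of both kidneys of 6 mice. Mice 17, 23 and 32 are labelled as homozygous for the loss of Aif-1 (Aif-1-/-, called KO), and mice 12, 26 and 36 as Aif-1+/+ (called WT). In every mouse the left kidney had been made ischemic for 30 min and is called injured, and the right kidney, left without ischemia, is called contralateral. Kidneys were taken at day 4, digested to single cells and enriched for F4/80 with a biotin-labelled antibody and magnetic particles, so each library is a bulk sample of selected cells. There were 4 groups of 3 libraries: KO injured, KO contralateral, WT injured and WT contralateral. The contralateral kidney sat in an animal whose other kidney was injured and is not a kidney of an unoperated mouse. Not given in the sources used here are the strain, age and sex of the mice and how the Aif-1 allele was made.

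MHC class II molecules present peptides from ingested proteins to CD4 T cells, and in the kidney macrophages and dendritic cells carry most of them. An alpha and a beta chain form in the endoplasmic reticulum around the invariant chain, which blocks the groove and sorts the complex to endosomes. There proteases such as cathepsin S cut the invariant chain down to a short remnant, H2-DM exchanges that remnant for a peptide and H2-O restrains H2-DM. H2-Aa and H2-Ab1 form the I-A molecule and H2-Eb1 is the beta chain of I-E. The classical class II chains and the invariant chain are under one master regulator, the class II transactivator, which interferon gamma induces.

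Totals ran from 255274 to 904220 counts per library, and the geometric mean of 13 housekeeping probes differed 8.16-fold between libraries, against 1.18-fold for the positive control probes added to each. Both libraries of mouse 12 and the injured library of mouse 17 stood apart, with housekeeping means of 1470, 1431 and 1078 against 180.1 to 499.7 in the other 9, and with 49240 to 55136 raw counts of Klk1, a kallikrein of the kidney tubule, against 1715 to 12029. Aif1 itself had 81, 93 and 64 raw counts in KO injured and 71, 83 and 54 in KO contralateral libraries, against 74, 95 and 85 in WT injured and 57, 70 and 72 in WT contralateral ones. The Aif1 counts overlapped between genotypes and lay close to the negative control probes (mean 31.7, threshold 53.1), and the site that the probe binds was not known here, so they did not check the genotype labels.

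The 4 class II genes were among the most heavily counted genes of these cells. Cd74 took 2.82% of all endogenous counts averaged over the libraries and ranked 3 of 741, H2-Aa took 1.29% and ranked 10, H2-Ab1 took 0.819% and ranked 16, and H2-Eb1 took 0.708% and ranked 21. Probes differ in how well they hybridise, so these ranks are of counts and not of transcripts. The lowest count of any of the 4 in any library was 854, for H2-Eb1 in the injured kidney of mouse 32, and all 4 passed the filter on low counts in all 12 libraries. Together they made up 3.44%, 5.11% and 6.95% of the endogenous counts in KO injured libraries (mice 17, 23 and 32), against 7.28%, 4.53% and 8.03% in KO contralateral ones. In WT mice 12, 26 and 36 the share was 2.001%, 5.29% and 5.53% in injured libraries and 2.17%, 10.3% and 7.05% in contralateral ones. The share was lowest in both libraries of mouse 12, and it was lower in the injured kidney in 5 of 6 mice.

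Scaled to the whole panel, the class II genes had lower average counts in injured than in contralateral kidneys, but with a spread between mice that left none of them past the test. Normalised counts are raw counts divided by a library factor from the trimmed mean of M values (TMM), which assumes that most genes do not change. Cd74, the invariant chain, had 5652, 5801 and 7039 normalised counts in KO injured kidneys (mice 17, 23 and 32), against 7308, 4052 and 8564 in KO contralateral kidneys. Its WT values were 3162, 5117 and 5690 in injured kidneys (mice 12, 26 and 36), against 3664, 10965 and 8162 in contralateral ones. The groups overlapped in both genotypes, and the injured value was the higher one in mouse 23 alone.

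H2-Aa, the alpha chain of I-A, had 2323, 2708 and 2891 normalised counts in KO injured kidneys, against 3556, 2151 and 3963 in KO contralateral kidneys. In WT mice H2-Aa had 1743, 2123 and 2144 normalised counts in injured kidneys, against 2048, 5059 and 3858 in contralateral kidneys. The 3 WT injured libraries thus lay within a narrow range while the contralateral ones spread 2.47-fold. H2-Ab1, the beta chain of I-A, averaged 1800 ± 250 normalised counts in KO injured kidneys and 2004 ± 685 in KO contralateral kidneys, and 1397 ± 152 in WT injured kidneys and 2141 ± 796 in WT contralateral kidneys (SD, n = 3 each). H2-Eb1 averaged 1365 ± 186 in KO injured kidneys and 1710 ± 567 in KO contralateral kidneys, and 1179 ± 267 in WT injured kidneys and 2067 ± 883 in WT contralateral kidneys. In each of the 4 genes the SD was larger in the contralateral group than in the injured group of the same genotype.

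**Figure D1:**
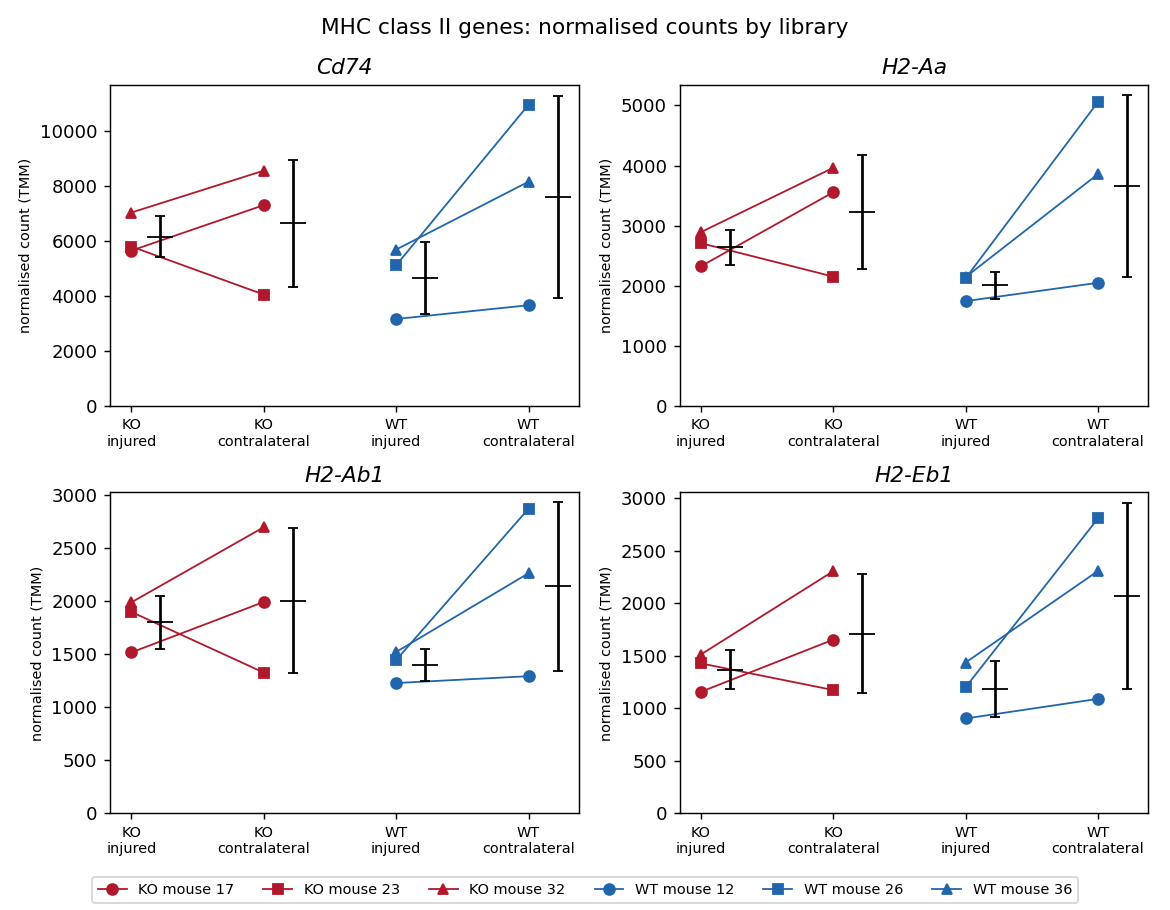
Normalised counts (TMM scaling, linear axis from 0) of the 4 class II genes in each library, with a line joining the kidneys of a mouse. KO groups are left of WT groups and injured left of contralateral, and black marks give the mean ± SD of 3 libraries. The line slopes the other way in mouse 23 alone.

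The 6 mice were then fitted together with edgeR's quasi-likelihood test, with the mouse as a block and p-values adjusted by Benjamini and Hochberg over all 689 genes that passed the filter. The mean injury response, which is the average of the KO and WT log2 ratios of injured over contralateral kidney, was -0.33 ± 0.36 for Cd74 (SE, adjusted p = 0.71), -0.51 ± 0.31 for H2-Aa (0.48), -0.33 ± 0.27 for H2-Ab1 (0.63) and -0.50 ± 0.26 for H2-Eb1 (0.39). None of the 4 was called at an adjusted p below 0.05, in a comparison that called 8.27% of the genes tested. The 95% intervals, from -1.10 to 0.44 for Cd74 and from -1.06 to 0.05 for H2-Eb1, include both no change and a halving. H2-Aa and H2-Eb1 nevertheless lay at the low end of the panel, at percentiles 1.31 and 1.45 of all log2 ratios, and Cd74 and H2-Ab1 at 11.03 and 11.47. The median over all genes was -0.06.

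The macrophage genes moved the other way on this scale. Adgre1 had 828, 619 and 517 normalised counts in KO injured kidneys, against 394, 330 and 352 in KO contralateral kidneys, and in WT mice 236, 518 and 727 in injured kidneys, against 168, 483 and 394 in contralateral ones. It was higher in the injured kidney in 6 of 6 mice and rose by 0.67 ± 0.18 on the log2 scale (SE, adjusted p = 0.032 in edgeR's test). Csf1r stood at 0.47 ± 0.20 (adjusted p = 0.23) and was higher in 5 of 6 mice. In a bulk sample a smaller number of cells of one type and less RNA per cell cannot be told apart, and this holds for every value given here.

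Set against Adgre1 and Csf1r of the same library, the class II genes were lower in the injured kidney in all 6 mice, as were 21.8% of the 687 genes tested on this scale. The ratio is the raw count of a gene over the geometric mean of the raw counts of the 2 macrophage genes, and it needs no scaling between libraries. For Cd74 it was 7.21, 9.63 and 14.4 in KO injured kidneys (mice 17, 23 and 32), against 20.5, 13.97 and 22.9 in KO contralateral kidneys. In WT mice 12, 26 and 36 the Cd74 ratio was 13.6, 10.1 and 8.88 in injured kidneys, against 19.0, 20.4 and 20.2 in contralateral kidneys. The WT groups did not overlap, as held for 2.33% of all genes in this direction, and in KO mice the injured kidney of mouse 32 stood above the contralateral kidney of mouse 23.

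The H2-Aa ratio was 2.96, 4.50 and 5.92 in KO injured kidneys, against 9.97, 7.42 and 10.6 in KO contralateral kidneys. In WT mice H2-Aa gave 7.51, 4.21 and 3.35 in injured kidneys, against 10.6, 9.41 and 9.56 in contralateral kidneys. Neither genotype's groups overlapped, which in KO mice was common on this scale (63.2% of all genes lay lower in injured kidneys without overlap), although the WT injured kidney with the highest ratio, that of mouse 12, exceeded the KO contralateral kidney with the lowest. H2-Ab1 had a ratio of 1.93, 3.15 and 4.07 in KO injured kidneys, against 5.58, 4.57 and 7.20 in KO contralateral kidneys. Its WT ratios were 5.29, 2.86 and 2.37 in injured kidneys, against 6.70, 5.34 and 5.60 in contralateral kidneys. The groups of each genotype were apart, in WT by the narrow step between the injured kidney of mouse 12 and the contralateral kidney of mouse 26.

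H2-Eb1 separated the kidney sides across both genotypes. Its ratio was 1.48, 2.37 and 3.09 in KO injured kidneys, against 4.64, 4.04 and 6.15 in KO contralateral kidneys. In WT mice it was 3.89, 2.38 and 2.24 in injured kidneys, against 5.65, 5.22 and 5.71 in contralateral kidneys. All 6 injured libraries lay below all 6 contralateral ones, the step being that between the injured kidney of mouse 12 and the contralateral kidney of mouse 23. Of all 687 genes 0.728% separated in this way, the other 4 being H2-Ob, Il10ra and the metalloproteinases Mmp12 and Mmp13, named here after their values were seen. Within WT mice the contralateral ratios were close to one another, at 5.53 ± 0.27 for H2-Eb1 and 19.9 ± 0.75 for Cd74 (SD, n = 3), although the same libraries had ranged 2.99-fold in normalised Cd74 counts.

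**Figure D2:**
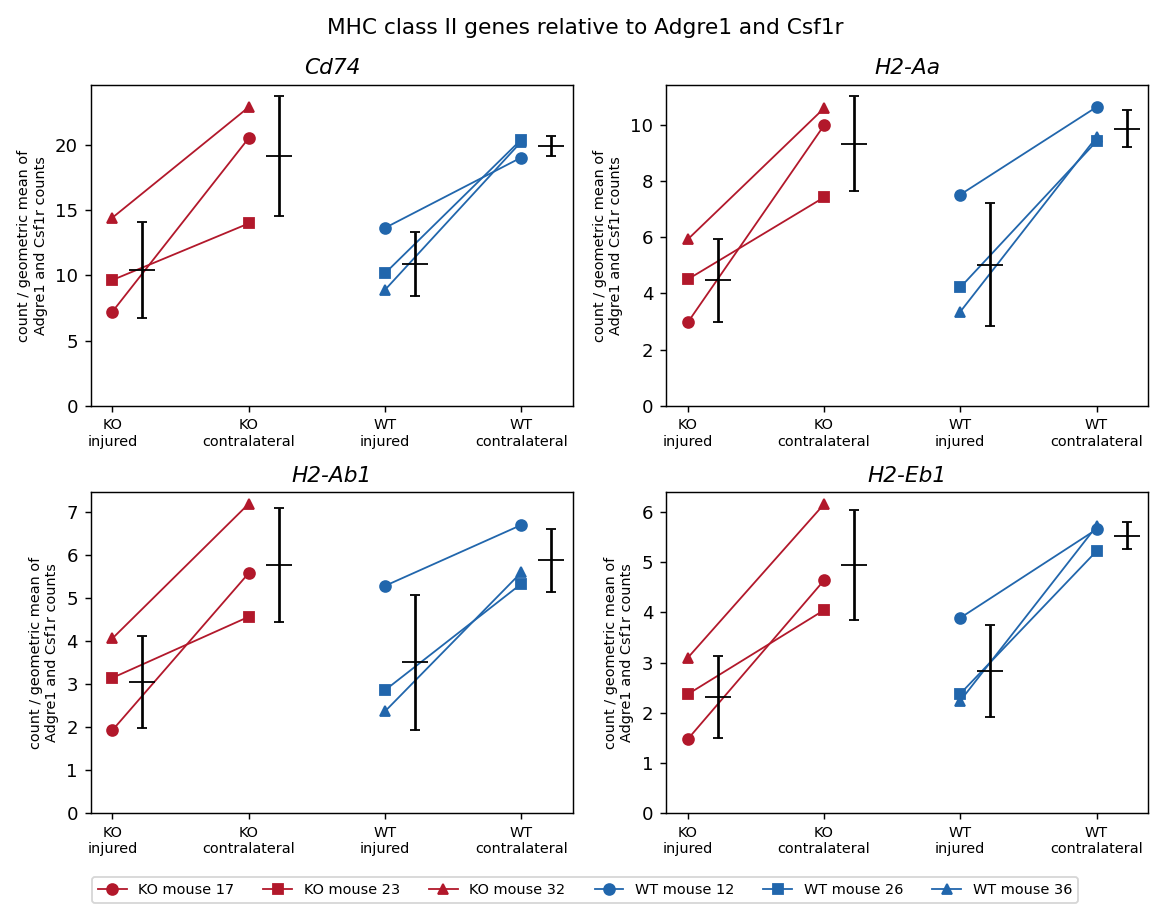
Ratio of each class II gene's raw count to the geometric mean of the Adgre1 and Csf1r counts of the same library, on a linear axis from 0, with lines joining the kidneys of a mouse and black marks for the mean ± SD of 3 libraries. KO groups are left of WT groups and injured left of contralateral. Every line runs from a lower injured value to a higher contralateral value, and H2-Eb1 shows no overlap between the 6 injured and the 6 contralateral libraries.

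The same edgeR fit, with the library size replaced by that geometric mean and 687 genes tested, called all 4 in the mean injury response. Cd74 fell by 0.90 on the log2 scale (SE 0.36, adjusted p = 0.043), H2-Aa by 1.08 (SE 0.29, 0.019), H2-Ab1 by 0.89 (SE 0.25, 0.020) and H2-Eb1 by 1.07 (SE 0.24, 0.0091), with ratios of injured over contralateral of 0.537, 0.473, 0.538 and 0.475. This fit called 51.4% of all genes tested, 331 of them (48.2%) lower and 22 higher, and the median over the panel was -0.64, so being called lower on this scale is the common outcome for a gene of the panel. Within the panel the class II genes stood at percentiles 1.31 (H2-Aa), 1.46 (H2-Eb1), 11.8 (Cd74) and 11.9 (H2-Ab1) of the 687 log2 ratios.

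The calls rested on few mice. Without mouse 12, whose libraries stood apart, Cd74 was not called (-0.999, adjusted p = 0.15), while H2-Aa and H2-Ab1 were at -1.22 and -1.02 (both 0.049) and H2-Eb1 at -1.19 (0.015). Without mouse 17, Cd74 and H2-Ab1 were not called (-0.75 and -0.75, adjusted p = 0.14 and 0.062), while H2-Aa was at -0.92 (0.047) and H2-Eb1 at -0.94 (0.017). Cd74 was also not called without mouse 23, 26 or 36 (adjusted p = 0.15, 0.096 and 0.10), H2-Ab1 not without 23 or 36 (0.096 and 0.058), and H2-Aa not without 23 (0.096). H2-Eb1 was called whichever mouse was left out, with adjusted p from 0.00079 to 0.046. With Csf1r alone as the scale, Cd74 was not called either (-0.80, adjusted p = 0.10), and without the mouse as a block none of the 4 was (0.22 each).

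**Figure D3:**
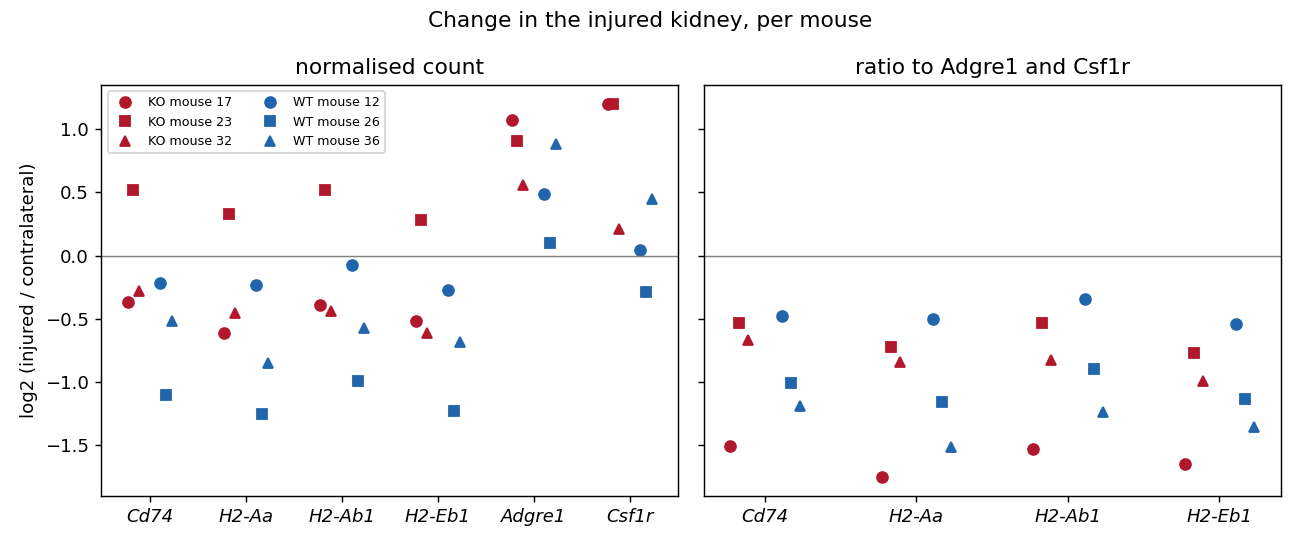
Change in the injured kidney of each mouse, as log2 of injured over contralateral, for normalised counts (left) and for the ratio to Adgre1 and Csf1r (right). KO mice stand left of WT mice within each gene. On the left the class II genes of mouse 23 lie above 0 and those of the other 5 mice below, with Adgre1 above 0 in every mouse, and on the right all class II values lie below 0, between -0.34 (H2-Ab1, mouse 12) and -1.75 (H2-Aa, mouse 17).

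Within each genotype the class II genes gave similar relative changes. In KO mice the ratio to Adgre1 and Csf1r fell by 1.10 for H2-Aa (SE 0.41, adjusted p = 0.029), by 0.96 for H2-Ab1 (SE 0.36, 0.028) and by 1.14 for H2-Eb1 (SE 0.34, 0.017), and stood at -0.90 ± 0.50 for Cd74 (0.12). None of the 4 was called in KO mice without mouse 17 (adjusted p 0.13 to 0.40), without mouse 23 (0.18 to 0.26) or without the mouse as a block (0.14 to 0.31), H2-Aa and H2-Ab1 were not called without mouse 12 (0.078 and 0.068), and H2-Ab1 not without mouse 32 (0.057). That fit called 60.6% of the genes and had a median of -0.92, so the KO values of the class II genes lay between percentiles 37.1 (H2-Eb1) and 51.1 (Cd74), in the middle of the panel. In WT mice the values were -0.89 ± 0.50 for Cd74, -1.06 ± 0.41 for H2-Aa, -0.83 ± 0.36 for H2-Ab1 and -1.01 ± 0.34 for H2-Eb1, none called (adjusted p 0.34 to 0.52), in a fit that called 0% of the genes and had 81 at an unadjusted p below 0.05. The WT median was -0.21, and there the class II genes lay between percentiles 1.02 (H2-Aa) and 4.51 (H2-Ab1). Nearly the same drop relative to the macrophage genes therefore stood at the low end of the panel in WT mice and in its middle in KO mice.

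The difference between the KO and WT responses was not called for any of the 4 on either scale. On the relative scale it was -0.01 ± 0.71 for Cd74, -0.04 ± 0.58 for H2-Aa, -0.14 ± 0.50 for H2-Ab1 and -0.13 ± 0.48 for H2-Eb1 (adjusted p 0.90 to 0.99), and the 95% interval for H2-Eb1, from -1.12 to 0.86, leaves room for a difference of about the size of the response itself. That comparison called 0% of 687 genes, with 132 at an unadjusted p below 0.05. In normalised counts the KO response of the class II genes ran from -0.28 ± 0.37 (H2-Eb1) to -0.05 ± 0.51 (Cd74), with none called against 6.82% of all genes, and the WT response from -0.78 ± 0.43 (H2-Aa) to -0.55 ± 0.39 (H2-Ab1), with none called against 0.726%. Scaled to the positive controls instead, the KO values of all 4 turned positive, from 0.39 (H2-Eb1) to 0.62 (Cd74). Under TMM scaling the difference between the KO and WT responses ran from 0.44 to 0.56 (adjusted p 0.60 to 0.64 in edgeR's test). That comparison again called 0% of the genes, with 75 at an unadjusted p below 0.05. In DESeq2 it called 0 genes as well.

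KO and WT kidneys of the same side did not differ past the test in any class II gene. In injured kidneys the normalised counts gave log2 ratios of KO over WT of 0.40 ± 0.57 for Cd74, 0.40 ± 0.46 for H2-Aa, 0.37 ± 0.42 for H2-Ab1 and 0.21 ± 0.44 for H2-Eb1, where edgeR called 0% of the genes, with 5 at an unadjusted p below 0.05, and DESeq2 called 3. In H2-Aa the 3 KO injured libraries, at 2323 to 2891 normalised counts, did not overlap the 3 WT injured ones, at 1743 to 2144 (adjusted p = 1.0 in edgeR's test), as was so for 2.76% of all genes in this direction, and the other 3 genes overlapped. Relative to Adgre1 and Csf1r the same 4 values were -0.06, -0.17, -0.20 and -0.29, with 0% of genes called and 4 at an unadjusted p below 0.05. In contralateral kidneys the log2 ratios ran from -0.27 (H2-Eb1) to -0.10 (H2-Ab1) in normalised counts and from -0.16 (H2-Eb1) to -0.02 (H2-Ab1) relative to the macrophage genes, and edgeR called 0% of the genes on both scales, with 3 and 8 at an unadjusted p below 0.05. The intervals were wide, from -0.74 to 1.16 for H2-Eb1 in normalised counts of injured kidneys.

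The class II genes varied together from library to library. The ratio between any pair of them ranged 1.27-fold (H2-Aa to H2-Ab1) to 1.48-fold (Cd74 to H2-Ab1) over the 12 libraries, whereas their ratios to Adgre1 ranged 3.57-fold to 4.69-fold and those to Csf1r 2.97-fold to 3.70-fold. Pearson's r between their log2 normalised counts was 0.942 to 0.971, and Spearman's rho at least 0.909 (n = 12 libraries, which share mice and a scaling factor, so that no p is given). Between their injured minus contralateral differences r was 0.978 to 0.995 (n = 6 mice). Against Adgre1 the r of the class II genes was 0.165 to 0.446 over the 12 libraries and 0.468 to 0.596 over the 6 differences, and against Csf1r it was 0.344 to 0.595 and 0.587 to 0.694. The SD of log2 normalised counts over all libraries was 0.41 to 0.53, near the median of 0.56 over the genes that passed the filter.

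Some ratios inside the group shifted slightly, with the same sign in every mouse. The ratios share genes, so their shifts are not independent of one another. The Cd74 to H2-Aa ratio was 1.81 to 2.65 in injured libraries, against 1.79 to 2.17 in contralateral ones, and was higher in the injured kidney in 6 of 6 mice, by 0.18 ± 0.10 on the log2 scale (SD, n = 6). Cd74 to H2-Eb1 and H2-Ab1 to H2-Eb1 were also higher in 6 of 6 mice, by 0.18 ± 0.09 and 0.18 ± 0.05, and H2-Aa to H2-Ab1 was lower in 6 of 6, by -0.19 ± 0.09. The remaining ratios, Cd74 to H2-Ab1 and H2-Aa to H2-Eb1, moved by -0.00 ± 0.11 and -0.01 ± 0.11, with 4 and 3 mice higher. The 4 genes thus went in pairs, with H2-Aa and H2-Eb1 lower relative to Cd74 and H2-Ab1 in the injured kidney. This pattern was picked out after its values were seen and is given without a test.

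Of the other genes of class II presentation, 9 of the 23 listed were measured and 7 passed the filter on low counts. In normalised counts 1 of the 7 rose and 0 fell in the mean injury response, with a median of 0.26 against -0.06 for all genes tested. Among all 689 genes 53 (7.69%) were called higher and 4 lower. The one that rose was Ctss, cathepsin S, which trims the invariant chain, by 1.23 ± 0.24 on the log2 scale (SE, adjusted p = 0.0029). Ctsd and Ctsl, the endosomal proteases cathepsin D and L, stood at 0.99 ± 0.43 and 0.57 ± 0.24 and were not called (adjusted p = 0.26 and 0.25). Ctss also rose relative to Adgre1 and Csf1r, by 0.66 ± 0.19 (adjusted p = 0.020), where the 4 class II genes had fallen.

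The H2-DM genes of peptide exchange lay between the proteases and the class II chains, while H2-Ob lay among the chains, at -0.36 in normalised counts. H2-DMa, the alpha chain of the exchange factor, stood at 0.26 ± 0.14 in normalised counts, and its beta chains H2-DMb1 and H2-DMb2 at -0.05 ± 0.17 and 0.02 ± 0.22, none called. Relative to the macrophage genes they were at -0.31, -0.62 and -0.56, also not called (adjusted p 0.058 to 0.19). H2-Ob, the beta chain of the H2-DM inhibitor, fell on that scale by 0.93 (SE 0.30, adjusted p = 0.027), which makes 1 of 7 higher and 1 of 7 lower with a median of -0.31 against -0.64. Among all 687 genes 22 were called higher and 331 lower there. H2-Ob had only 68 to 131 raw counts, not far above the threshold of 53.1. H2-Ea-ps, the locus of the I-E alpha chain under the pseudogene name it has because the gene is defective in some mouse strains, had 13 to 30 raw counts and never reached the threshold, so the partner chain of H2-Eb1 was not detected by this probe. Lag3, a class II ligand on T cells, did not pass the filter.

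**Figure D4:**
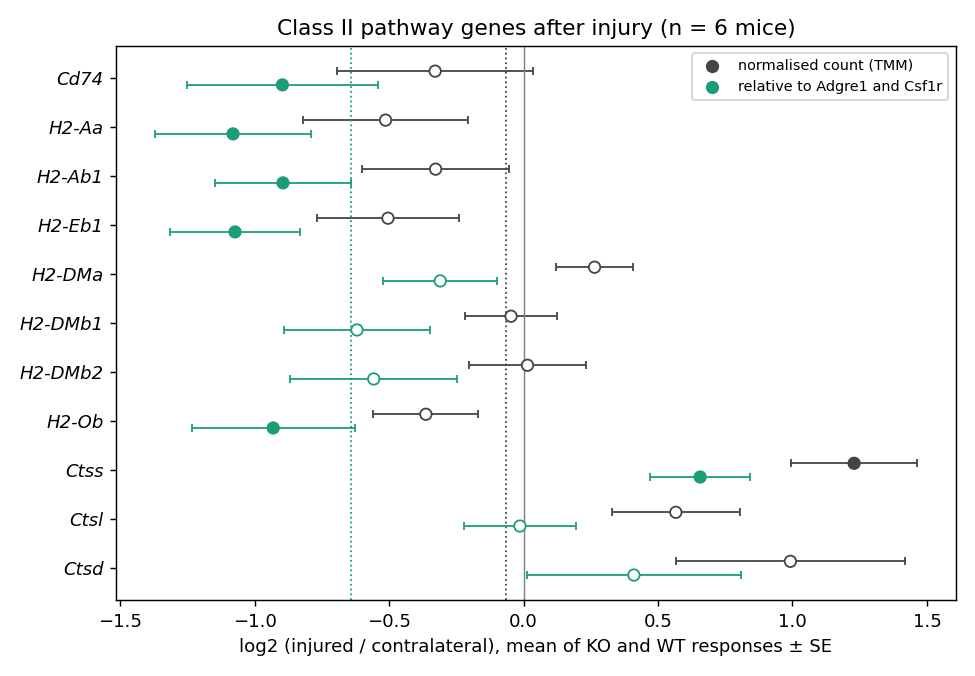
Mean injury response of the class II chains, the peptide-exchange genes and the endosomal proteases, as log2 of injured over contralateral ± SE (6 mice), in normalised counts (grey) and relative to Adgre1 and Csf1r (green). Filled points were called at an adjusted p below 0.05 and dotted lines mark the median of all genes on each scale. The 4 class II chains lie left of the median and Ctss right of it on both scales.

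Genes that act beside class II were mostly not called in normalised counts, where 7.69% of all genes were called higher and 4 of 689 lower. Of 12 genes of costimulation, the second signal that antigen-presenting cells give T cells, 0 rose and 0 fell in edgeR's test, with a median of -0.16. Cd86, Cd80 and Cd40, the classical costimulators, were at -0.12 ± 0.16, 0.04 ± 0.22 and 0.08 ± 0.18. Relative to the macrophage genes, where 48.2% of all genes were called lower, 5 of the 12 fell, Cd28, Ctla4, Icos, Pdcd1lg2 and Cd86, with a median of -0.73. The first 3 of these are receptors of T cells. Cd28, Ctla4, Icos and Pdcd1lg2 had only 67 to 136, 70 to 124, 62 to 143 and 72 to 145 raw counts, not far above the threshold of 53.1. Of 14 class I genes, 0 were called in normalised counts, with a median of 0.09 and with the heavy chains H2-K1 and H2-D1 at 0.18 ± 0.28 and 0.24 ± 0.28. Relative to the macrophage genes 0 of the 14 rose and 4 fell, H2-Q10, H2-M3, H2-Q2 and H2-T23, with a median of -0.49. H2-Q10, H2-M3 and H2-Q2 had only 35 to 110, 64 to 188 and 45 to 128 raw counts. On both scales the class I median was above that of all genes and the class II chains were below it, a difference that was not tested. Of 13 genes around interferon gamma and its opponents, 2 rose, the immunosuppressive cytokine Tgfb1 by 0.71 ± 0.19 (adjusted p = 0.027) and the chemokine Cxcl10 by 0.70 ± 0.21 (0.049), and 0 fell. Ifng itself and Irf1, a transcription factor that interferon gamma induces, stood at -0.26 ± 0.22 and -0.02 ± 0.28. On the relative scale 0 of the 13 rose and 3 fell, among them Ifng and the interleukin 10 receptor chain Il10ra. Ifng had only 56 to 106 raw counts. The class II transactivator gene, Ciita, was among the listed genes of class II presentation, but no probe of that name was measured.

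Markers of the cells that could be in the selection moved as follows beside the class II genes, and their part in the result was not tested. Of 16 macrophage markers 10 rose and 0 fell in normalised counts, against 7.69% of all genes called higher, with a median of 0.87, among them Cd68 (1.31 ± 0.21), Itgam (1.27 ± 0.19), Mrc1 (1.26 ± 0.19) and Trem2 (1.14 ± 0.18). Their summed normalised counts were 7883 to 13123 in KO injured libraries, against 3716 to 5068 in KO contralateral ones, and 4145 to 9757 in WT injured libraries, against 2871 to 6033 in WT contralateral ones. With the macrophage markers as the scale in place of Adgre1 and Csf1r, the class II genes stood at -1.02 to -1.20, all 4 called, as were 79.3% of all genes in this direction. With Ptprc, the CD45 protein of all leukocytes, they stood at -1.03 to -1.22, again all 4 called, against 71.1%. Both scales were added after the data had been seen. On the scale of Adgre1 and Csf1r, 5 of the other 14 macrophage markers rose and 1, Cd163, fell. Cd163 had only 64 to 138 raw counts, not far above the threshold of 53.1. Among all 687 genes 22 were called higher on that scale and 331 lower.

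Of 9 dendritic cell markers measured, 8 passed the filter and 0 of these were called in normalised counts, with a median of -0.29. Relative to Adgre1 and Csf1r 0 of the 8 rose and 6 fell, with a median of -0.86, against 48.2% of all genes called lower and a median of -0.64. Their summed normalised counts overlapped between all groups, at 614 to 1081 in KO injured, 964 to 1075 in KO contralateral, 456 to 1092 in WT injured and 498 to 1102 in WT contralateral libraries. None was at 0, but the defining markers Flt3, Xcr1 and Clec9a had 36 to 76, 31 to 69 and 43 to 84 raw counts, at or near the threshold of 53.1, and Itgax had 32 to 117 and passed it in 2 libraries. Cd83 was the largest part of the summed counts. It averaged 350 of 868 in KO injured, 250 of 1005 in KO contralateral, 266 of 858 in WT injured and 274 of 808 in WT contralateral libraries. Of the B cell markers, Ms4a1 (CD20) had 91 to 157 raw counts and Fcer2a 20 to 49, never above the threshold, and 0 of 9 T cell markers in the list were on the panel. Cd74 ranged from 3102 to 13190 raw counts over the same libraries.

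Of 5 kidney tubule markers, the injury marker Havcr1 rose by 1.01 ± 0.19 (adjusted p = 0.0023), and Egf and Fbp1 fell by 1.80 (SE 0.49, 0.032) and 0.85 (SE 0.24, 0.040). Fbp1 had 28 to 513 raw counts and reached the threshold of 53.1 in only 4 of the 12 libraries. Normalised Klk1 was 3035 to 21098 in KO injured libraries, against 5217 to 8003 in KO contralateral ones, and 2678 to 25615 in WT injured libraries, against 5242 to 29508 in WT contralateral ones. Monocyte markers gave 2 of 5 higher, Fn1 (1.33 ± 0.22) and Ccr2 (0.79 ± 0.15), and 0 lower, and neutrophil markers 0 of 7 in either direction. Of 3 endothelial and platelet markers, Pf4 rose, and the only NK cell marker that passed the filter was not called. For all these marker lists the share over the 689 genes was 53 (7.69%) called higher and 4 lower.

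Over the 12 libraries the genes whose normalised counts were most like the mean of the class II genes were Mmp13 (Pearson's r 0.80), a collagenase, Ccl3 (0.80), a macrophage chemokine, Il1b (0.73), the inflammatory cytokine, Ltb4r1 (0.70), a leukotriene B4 receptor, and Il10ra (0.70). Under housekeeping scaling these 5 genes had an r of 0.91 to 0.93 with the class II mean. On that scale r was also high for Adgre1 (0.73) and Csf1r (0.80), which had 0.28 and 0.45 in normalised counts. The r of all genes on that scale is not given, so the higher values do not mark these 5 out. When the injured minus contralateral differences of the 6 mice were used, the most similar genes were Dusp2 (0.85), Cybb (0.83), H2-DMa (0.83), Cd14 (0.83) and Alox5ap (0.81). The lists had no gene in common. Mmp13, first over the 12 libraries, had an r of -0.05 over the 6 differences, and H2-DMa had 0.50 over the 12 libraries.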

How the data were processed

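RNA of the selected cells was counted on a NanoString nCounter panel, per the labels' protocols. The authors deposited raw counts of 768 probes in 12 libraries, with no normalization recorded in the sources used here: 741 endogenous genes, 13 housekeeping genes (taken by name), 6 positive and 8 negative controls. Genes were kept where the raw count reached 53.1 (mean plus 2 SD of the negative controls) in at least 3 libraries, which left 689. Counts were fitted with edgeR 4.0.16 in R 4.3.3 (TMM factors, quasi-likelihood test, Benjamini-Hochberg over all genes tested, calls at an adjusted p below 0.05), over all 12 libraries. The mouse was a fixed block in the injury contrasts, since both kidneys came from one animal. KO against WT was fitted on group means without the block. For the relative scale the library size was replaced by the geometric mean of Adgre1 and Csf1r, leaving 687 genes.

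As a check of the pairing, deviations from the group means of the kidneys of a mouse correlated over 689 genes at 0.96, 0.88 and 0.72 in mice 12, 26 and 36 and at -0.12, 0.37 and -0.49 in mice 17, 23 and 32. No libraries of a group agreed within sampling noise (lowest chi-square per degree of freedom 5.92). The labels give separate mice, and no kidney had a repeat library. Spread between animals and spread between the preparations of single libraries therefore cannot be told apart. Counts of single hybridised molecules leave little counting error for the class II genes. All 4 class II symbols matched the RefSeq table of GRCm38.p6. The files hold no probe sequence, so none is printed.

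The 4 genes and all gene lists were chosen with earlier results of these data known, so no list is adjusted or tested on its own. Genes named are the 4, Adgre1, Csf1r and Aif1, from each list those called and up to 4 others of smallest p in the mean injury response, and the 5 most similar genes by each of 2 correlations. Others are named for their role: Cd80, Cd40, H2-K1, H2-D1, Irf1, Klk1 and the markers near background were chosen after their values were seen. Alternatives were housekeeping, positive control and DESeq2 scaling, DESeq2 1.42.0, no filter, background subtraction, each mouse left out, no replicate block, and other macrophage scales. The fits were tested on simulated counts.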

Additional observations from a re-analysis of the deposited data

How the results depend on the processing

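Relative to Adgre1 and Csf1r, the 4 class II genes had 156 values for the mean, KO and WT injury responses under the alternatives run, all below 0 (-1.34 to -0.60), and 38 of the 52 for the mean response were called. The main fit of the mean response called 48.2% of all genes lower, with a median of -0.64, so values below 0 were common on this scale. The alternatives reuse the same 6 mice, and the number of genes called differed widely between them, as given below. Without the replicate block the mean response was -0.87 for Cd74, -1.02 for H2-Aa, -0.83 for H2-Ab1 and -1.03 for H2-Eb1, and the KO response -1.06 for H2-Aa, -0.92 for H2-Ab1 and -1.10 for H2-Eb1, none called. With Csf1r alone Cd74 was at -0.80 and not called. With 1 mouse left out, the mean response ran from -0.999 to -0.75 for Cd74, from -1.22 to -0.92 for H2-Aa and from -1.02 to -0.75 for H2-Ab1, and the KO response from -1.29 to -0.78 for H2-Aa, from -1.18 to -0.68 for H2-Ab1 and from -1.32 to -0.88 for H2-Eb1. In each of these ranges at least 1 value was not called.

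In normalised counts none of the 4 was called in the mean response under any alternative. Positive control scaling turned the sign of the mean response of Cd74 (0.018) and H2-Ab1 (0.023) and of the KO response of Cd74 (0.62), H2-Aa (0.42), H2-Ab1 (0.57) and H2-Eb1 (0.39). Housekeeping scaling turned H2-Ab1 of KO against WT contralateral kidneys (0.064). With 1 mouse left out, the KO response ran from -0.36 to 0.12 for Cd74 and from -0.45 to 0.11 for H2-Ab1, and KO against WT in contralateral kidneys from -0.57 to 0.028 for Cd74 and from -0.49 to 0.055 for H2-Ab1.

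The relative genotype comparisons, none called, also turned sign. The difference of responses was 0.22, 0.18, 0.088 and 0.095 (Cd74, H2-Aa, H2-Ab1, H2-Eb1) with Adgre1 alone and 0.24, 0.21, 0.11 and 0.12 with macrophage markers, and with 1 mouse left out it ran from -0.19 to 0.29, from -0.27 to 0.28, from -0.35 to 0.15 and from -0.31 to 0.13. In contralateral kidneys KO against WT was 0.14, 0.12, 0.17 and 0.030 with Csf1r alone, 0.11, 0.11, 0.17 and 0.021 with Ptprc alone, and 0.0064 (Cd74) and 0.032 (H2-Ab1) after background subtraction. With 1 mouse left out it ran from -0.21 to 0.13 (Cd74), from -0.18 to 0.059 (H2-Aa) and from -0.21 to 0.12 (H2-Ab1). In injured kidneys it was 0.046 for Cd74 with Ptprc alone, and ran from -0.37 to 0.14 (Cd74), from -0.43 to 0.24 (H2-Aa) and from -0.46 to 0.22 (H2-Ab1) with 1 mouse left out. The cause of these turns was not tested.

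The number of genes called moved more than the class II values. The mean response called 57 genes in normalised counts, 14 without the block and 28 (without mouse 23) to 224 (without mouse 32). On the relative scale it called 353, against 1 without the block, 56 with Csf1r alone, 549 with macrophage markers and 12 (without mouse 23) to 521 (without mouse 32). The KO response called 47, against 3 without the block, 24 with housekeeping scaling, 106 in DESeq2 and 14 to 370 with 1 mouse left out, and relatively 416, against 0 without the block, 2 without mouse 17 and 0 without mouse 23. Without mouse 32 the difference of responses called 323 genes, and 327 relatively, against 0.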
